A study of Drosophila melanogaster with 2 samples.

Results

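The diptericins, attacins and cecropins are 3 families of small antimicrobial peptides, most of them secreted, of Drosophila melanogaster. The 10 genes followed here were the features named Dpt, DptB, AttA, AttB, AttC, AttD, CecA1, CecA2, CecB and CecC among the 15906 features of the deposited table, and each name occurred once. They comprise 2 diptericins, 4 attacins and 4 cecropins. RNA was taken from the whole body of adult males at 15 days of age. The miR-305 males had the strain da-Gal4/UAS-miR305, in which the ubiquitous daughterless driver expresses a transgene of the microRNA miR-305, and the control males had the strain da-Gal4/+, which holds the same driver without the transgene. Each group had 1 library, so no difference below has a replicate check and no p-value exists. How many flies were pooled is not stated in the labels.

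These peptides kill bacteria by damaging their envelope, and most of them are known for action against Gram-negative bacteria. In flies the fat body secretes them into the haemolymph after infection, and epithelia such as the gut and the male reproductive tract can make them locally. Their genes are switched on mainly by the Imd pathway, in which peptidoglycan receptors signal through the adaptor Imd and the caspase Dredd to the NF-κB factor Relish.

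The values are FPKM, in which fragments are divided by transcript length and by the number mapped, so levels of different genes can be compared. The miR-305 library had 14241 features above 0 and an FPKM sum of 1176985, and the control library had 14389 and 967511. The read depth of either library is unknown. The mir-305 stem-loop had 546 FPKM in miR-305 males and a listed 0 in control males, and the driver gene da had 10.8 and 12.6 FPKM. Markers of fat body, gut, haemocytes, testis, accessory gland and eye were present in both libraries. Of the 6 female markers, the eggshell genes Cp36, Cp38 and Vm26Aa were listed at 0 in both libraries, and the yolk protein gene Yp3 had 4.79 and 5.69 FPKM.

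Diptericin RNA was several times lower in miR-305 males, and so was that of the attacin gene AttC. The cecropin gene CecA2 was just past 2-fold lower, and no member was 2-fold higher. The count of higher and lower features took those past 2-fold in log2(FPKM + 1), given a mean FPKM of 1 or more over both libraries. Of the 10 members 9 passed this filter, 4 were counted as lower and 0 as higher. Among all 11936 features past the filter 208 (1.74%) were lower and 282 (2.36%) were higher. The median log2 ratio of the 9 members was -0.94, beside -0.03 over all features past the filter, and 8 of the 9 lay below 0, as did 53.6% of all features. With the libraries scaled to the same FPKM sum, 7 of the 9 members were lower, against 3.02% of all features. With the same median in both libraries 3 of the 9 were lower, beside 189 of the 11936 features. The adding of 1 understates the difference of genes with low values.

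**Figure D1:**
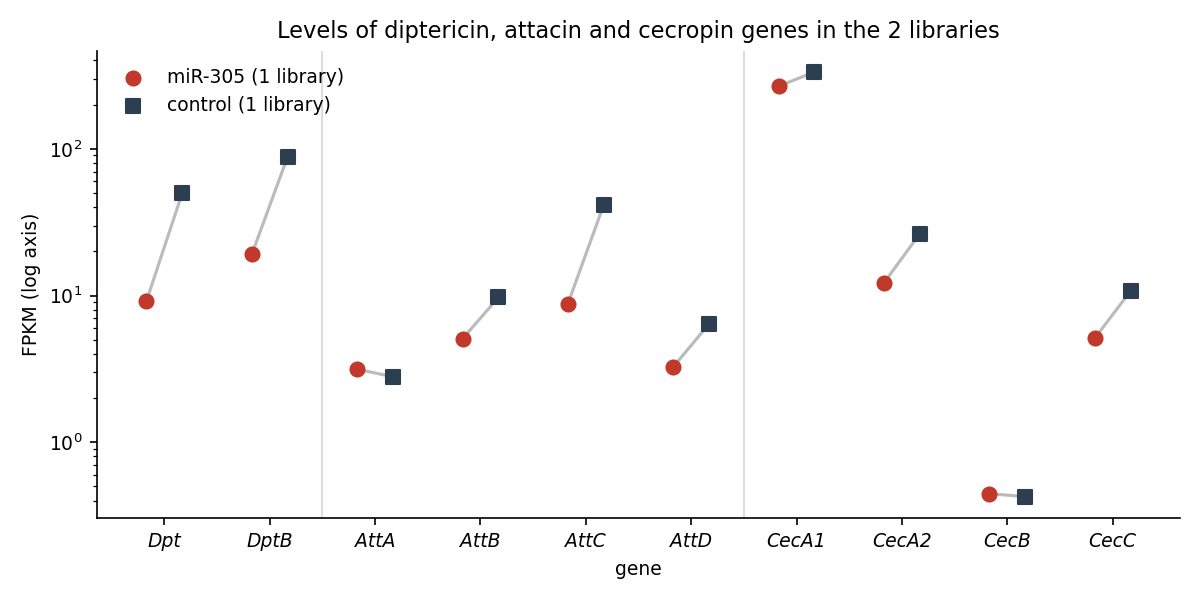
FPKM of the 10 members on a log axis, with the miR-305 library as circles and the control library as squares, 1 library each, and the families separated by vertical lines. The steepest drops are those of Dpt, DptB and AttC, CecA1 has the highest level in both libraries, and AttA and CecB are nearly level.

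Dpt encodes the first diptericin and is named DptA in current annotation (2R, 18865765 to 18866260 in dm6 coordinates, as for all positions below, a single exon of 496 nt). It had 9.16 FPKM in miR-305 males and 49.9 FPKM in control males. That is 5.45-fold lower, with a log2 ratio of -2.33, the 55th lowest of the 11936 features. DptB, its neighbour 1130 nt downstream (2R, 18867391 to 18867895), had 19.05 FPKM in miR-305 males and 88.2 FPKM in control males, which is 4.63-fold lower at a log2 ratio of -2.15. Both diptericins thus lay far below control. Within each library the level of DptB exceeded that of Dpt by a like factor, 2.08 in miR-305 males and 1.77 in control males. The precursors encoded by Dpt and DptB have 106 and 120 residues by the annotated coding length.

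The attacins are larger, glycine-rich peptides, and the 4 genes did not share a single ratio. AttC (2R, 13393705 to 13394667) had 8.78 FPKM in miR-305 males and 41.5 FPKM in control males, 4.72-fold lower at a log2 ratio of -2.12, close to the diptericins. AttD, which lies apart from the others (3R, 17625268 to 17626086) and is known as an attacin without a signal peptide, had 3.27 and 6.40 FPKM. Its log2 ratio of -0.80 was short of 2-fold with the deposited scaling. AttA (2R, 14747362 to 14748215) and AttB (2R, 14749223 to 14750165) are close copies in tandem, 1007 nt apart, and reads that match both cannot be told apart with certainty. AttB had 5.07 FPKM in miR-305 males and 9.70 FPKM in control males, at a log2 ratio of -0.82. AttA had 3.15 FPKM in miR-305 males and 2.80 FPKM in control males. Its log2 ratio of 0.13 lay on the other side of 0, and was -0.08 with an equal FPKM sum in both libraries. With the pair summed, the miR-305 library had 8.22 FPKM and the control library 12.5 FPKM, 1.52-fold lower. Relative to AttA, the level of AttC was 2.79 times as high in miR-305 males and 14.8 times as high in control males.

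The annotated genes AttC and DptB each overlap a gene on the other strand at their 3′ end, by 53 nt with CG4744 and by 48 nt with CG43109. Whether the counting used the strand is not stated in the labels, so reads of the overlaps are of uncertain assignment. CG4744 had 5.73 FPKM in miR-305 males and 7.63 FPKM in control males. CG43109 had 20.5 FPKM in miR-305 males and 9.78 FPKM in control males, the opposite direction to DptB.

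The cecropins are short helical peptides, and all 4 genes encode precursors of 63 residues. CecA1 (3R, 30210874 to 30211273) was the most abundant member in both libraries, with 267 FPKM in miR-305 males and 334 FPKM in control males. It was 1.25-fold lower, at a log2 ratio of -0.32, which 18.1% of all features lay below. CecA2 (3R, 30212156 to 30212568), known to encode the same mature peptide as CecA1, had 12.2 FPKM in miR-305 males and 26.4 FPKM in control males. Its log2 ratio was -1.05, just past 2-fold, and the call was lost with an equal median in both libraries (-1.0) or with a pseudocount of 5 (-0.87). CecC (3R, 30216484 to 30216938) had 5.12 FPKM in miR-305 males and 10.7 FPKM in control males. Its log2 ratio of -0.94 was just short of 2-fold, and it passed with a pseudocount of 0.1 (-1.05). CecB (3R, 30213315 to 30213797, on the minus strand), a further cecropin gene, had 0.45 FPKM in miR-305 males and 0.43 FPKM in control males. It was the member that did not pass the filter. The cecropins share sequence, so the assignment of their reads is uncertain, as it is for AttA and AttB. Their transcripts of 339 to 425 nt are short, so the effective length that FPKM divides by is less certain for them than for attacins. The same holds for the diptericin transcripts, of 496 nt for Dpt and 449 nt for DptB.

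**Figure D2:**
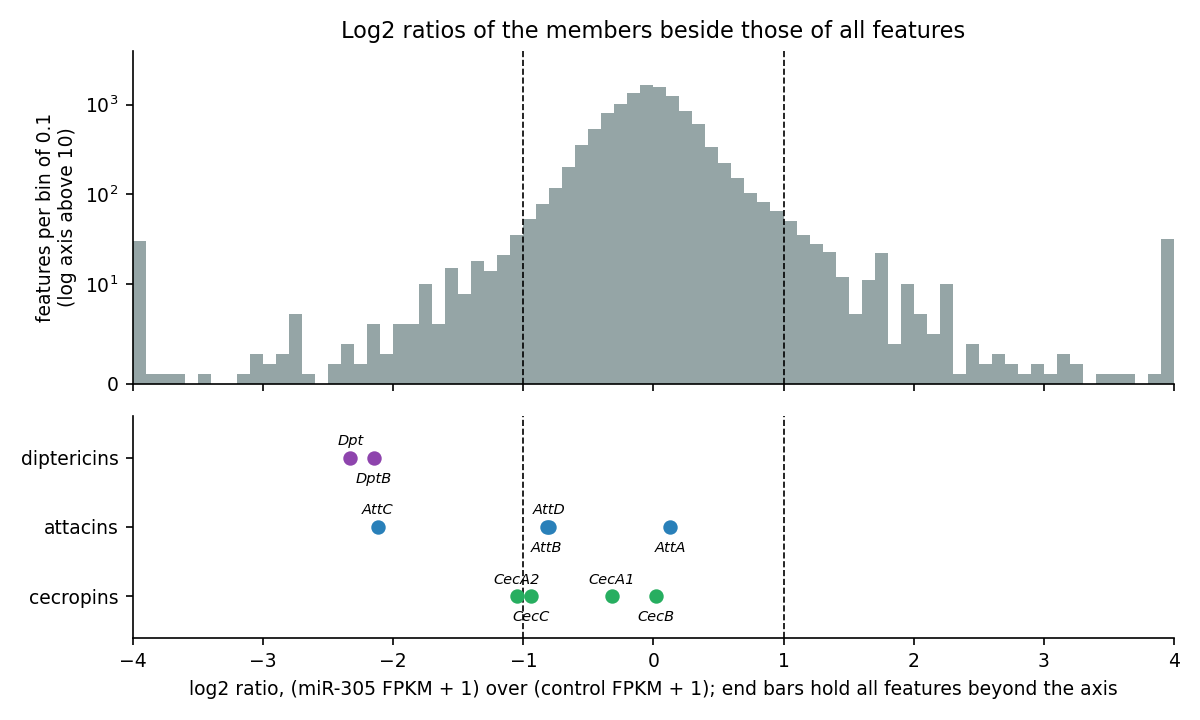
Above, the number of features per bin of log2 ratio over the 11936 features past the filter, on an axis that is logarithmic above 10, and below it the log2 ratio of each member by family. Dashed lines mark 2-fold, and Dpt, DptB and AttC lie beyond -2 while AttA and CecB lie just above 0.

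In rank among all 15906 features by level, Dpt was 6922nd in miR-305 males and 2004th in control males. DptB was 4415th and 1242nd, AttC 7056th and 2369th, and CecA1 534th and 404th.

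From the highest level to the lowest, the order in miR-305 males was CecA1, DptB, CecA2, Dpt, AttC, CecC, AttB, AttD, AttA and CecB. In control males it was CecA1, DptB, Dpt, AttC, CecA2, CecC, AttB, AttD, AttA and CecB. The orders differed in the place of CecA2, which stood above Dpt and AttC in miR-305 males and below them in control males. With 1 library per group there is no spread against which to judge neighbours in either order.

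**Figure D3:**
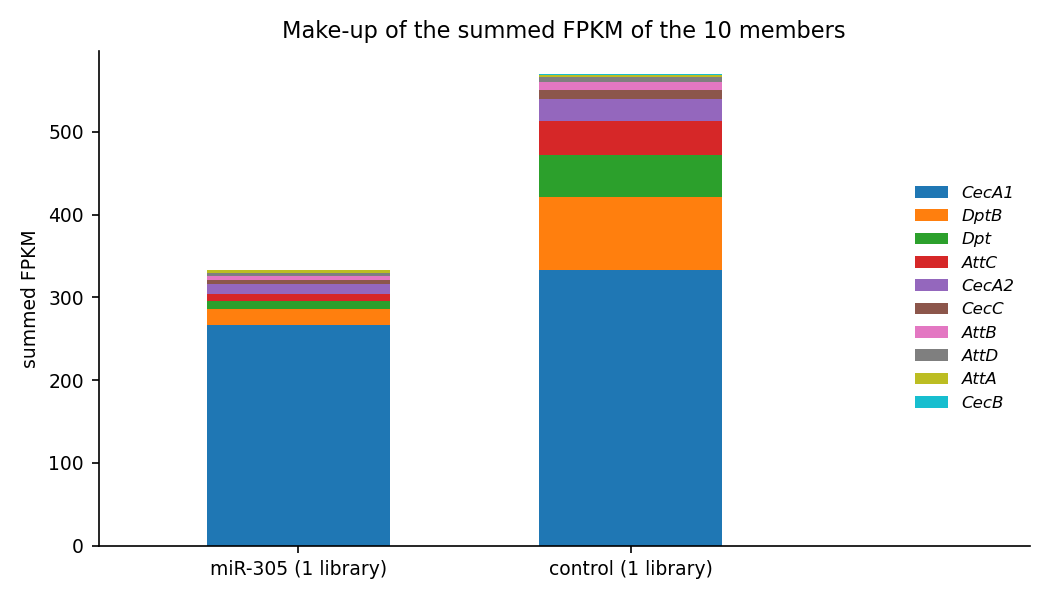
Summed FPKM of the 10 members in miR-305 males (left) and control males (right), stacked by gene from CecA1 at the base upward in order of the control level. The bars reach 333 and 570 FPKM, and the segments above CecA1 amount to 66.2 and 236 FPKM.

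The 10 members together had 333 FPKM in miR-305 males and 570 FPKM in control males, or 0.0283% and 0.0589% of all FPKM. The log2 ratio of the sums was -0.77, and it passed 2-fold (-1.05) when the libraries were scaled to the same sum. CecA1 alone made up 80.1% of the members' sum in miR-305 males and 58.6% in control males. Without CecA1 the sums were 66.2 FPKM in miR-305 males and 236 FPKM in control males, 3.56-fold lower. By family, the diptericins summed to 28.2 FPKM in miR-305 males and 138 FPKM in control males, 4.90-fold lower. The attacins summed to 20.3 and 60.4 FPKM, 2.98-fold lower, and the cecropins to 285 and 371 FPKM, 1.3-fold lower. The diptericin share of the members' sum was 8.47% in miR-305 males and 24.2% in control males. Shares within a library do not depend on how the libraries are scaled. CecA1 held 93.8% of the cecropin sum in miR-305 males and 89.9% in control males.

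Within tandem clusters some genes differed in their ratios and others, such as the diptericin pair, were alike. The cecropin genes lie with Anp in a stretch of 6991 nt on 3R. Anp encodes andropin, a male-specific peptide made in the ejaculatory duct, and ends 491 nt before CecA1. It had 5811 FPKM in miR-305 males and 2594 FPKM in control males, a log2 ratio of 1.16 against -0.32 for CecA1, and 0.88 when the libraries were scaled to the same sum. The level of Anp was 21.8 times that of CecA1 in miR-305 males and 7.77 times in control males. Dro, which encodes the proline-rich peptide drosocin and lies 647 nt before AttA, had 7.12 FPKM in miR-305 males and 6.78 FPKM in control males, near equal like AttA. Of the 60 other features within 20 kb of a member, 47 passed the filter, and their median log2 ratio was 0.00. Of these 47, 1 was counted as lower and 4 as higher, beside the 1.74% and 2.36% of all features. The lower one was the small nucleolar RNA snoRNA:Psi18S-1377b (4.03 against 16.3 FPKM, -1.78), and the higher ones were snoRNA:Psi18S-1377d (104 against 10.9 FPKM, 3.13), snoRNA:Psi28S-2149 (3.83 FPKM against a listed 0), Anp and the cuticle gene Edg91 (3.79 against 1.02 FPKM).

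**Figure D4:**
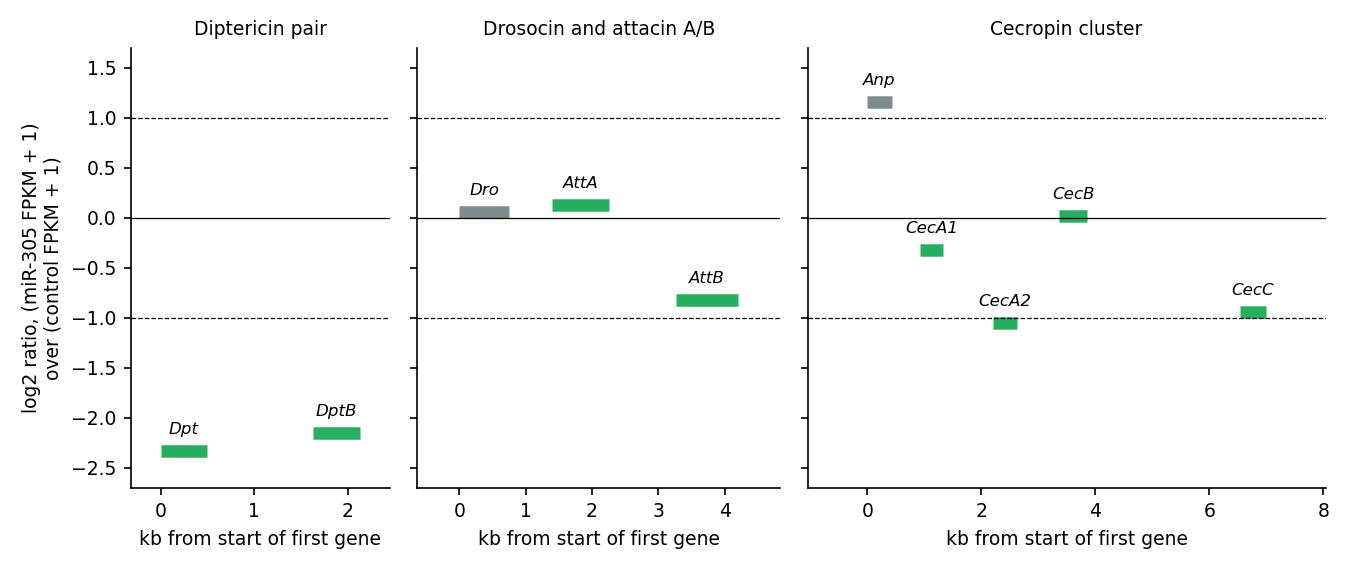
Log2 ratio of each gene drawn at its distance in kb from the start of the first gene of its cluster, with members in green, other genes in grey and dashed lines at 2-fold. The diptericin pair lies together below -2, Dro and AttA lie just above 0, and Anp lies above 1 beside the cecropins, which run from 0.02 for CecB to -1.05 for CecA2.

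In the pathway that switches these genes on, Dredd, PGRP-LC and key had the lowest ratios and Tab2 the highest. Of 17 names listed for the Imd pathway from receptor to Relish 15 were matched, all passed the filter and 0 were past 2-fold in either direction. The names IKKbeta and ird5 were not matched, so the list holds no value for them. At the shares of all features, 1.74% lower and 2.36% higher, a list of this length would hold few calls or none, so the count of 0 is near the background. Their log2 ratios ran from -0.36 to 0.31, with a median of -0.10. The lowest were Dredd, the caspase that acts on Imd and Relish (8.67 FPKM in miR-305 males and 11.4 in control males), and the receptor PGRP-LC (45.5 and 57.9 FPKM). The highest were Tab2, a partner of the kinase Tak1 (13.4 and 10.6 FPKM), and PGRP-LA (18.0 and 15.5 FPKM). Rel, which encodes Relish, had 50.4 FPKM in miR-305 males and 45.2 FPKM in control males. The level of Dpt relative to Rel was 0.182 in miR-305 males and 1.10 in control males. These are RNA levels and do not measure the activity of the pathway.

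Among regulators of the pathway, PGRP-LB was slightly higher and nub slightly lower. Of 15 names 14 were matched and 13 passed the filter, with 0 past 2-fold, which is again near the background, and a median log2 ratio of -0.06. The amidase gene PGRP-SC1a, which did not pass the filter, had 0.30 FPKM in miR-305 males and 1.01 FPKM in control males, 3.38-fold lower. The gene pirk, an inhibitor that is itself a target of Relish, had 41.2 FPKM in miR-305 males and 43.0 FPKM in control males. PGRP-LB, a secreted amidase that is likewise induced by the pathway and degrades peptidoglycan, had the highest ratio (34.6 against 27.5 FPKM, 0.32), followed by another amidase gene, PGRP-SC1b (1.77 against 1.37 FPKM, 0.22). The lowest ratios were those of nub (3.52 against 4.88 FPKM, -0.38) and casp (16.8 against 20.03 FPKM, -0.24), both known to restrain expression of these peptides. Why pirk and PGRP-LB lay near control while the diptericins did not was not tested. Scaling to the same sum moved the median of all features to -0.27 and those of the pathway and regulator lists to -0.35 and -0.30.

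Of all features past the filter, 1.74% were at least 2-fold lower and 2.36% higher. Among those listed as other inducible peptides, 3 of 15 past the filter were lower and 1 was higher, with a median log2 ratio of -0.33. The lower ones were Mtk, the antifungal metchnikowin, which Imd and Toll signals both induce (208 against 558 FPKM, -1.42), and the Bomanin genes IM2 (1153 against 3013 FPKM, -1.38) and IM23 (53.4 against 155 FPKM, -1.52), which depend on Toll. Anp was the higher one, and it is described above as a peptide of the ejaculatory duct and also counted among the markers of that tissue. The insect defensin gene Def had 12.4 FPKM in miR-305 males and 19.9 FPKM in control males, and the drosomycin gene Drs had 385 and 547 FPKM. The Bomanin genes IM1 and IM3 had log2 ratios of -0.81 and -0.61, and IM1 passed 2-fold with the same sum (-1.10). IBIN, a short infection-induced gene listed as CR44404, was higher but short of 2-fold (14.8 against 8.97 FPKM, 0.66). Listericin, another antibacterial peptide gene, had 1077 against 870 FPKM, and PGRP-SD, a receptor gene induced by infection, had 38.5 against 33.2 FPKM. IM10 was listed at 0 in both libraries. The gene edin had 0.27 FPKM in miR-305 males and a listed 0 in control males.

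**Figure D5:**
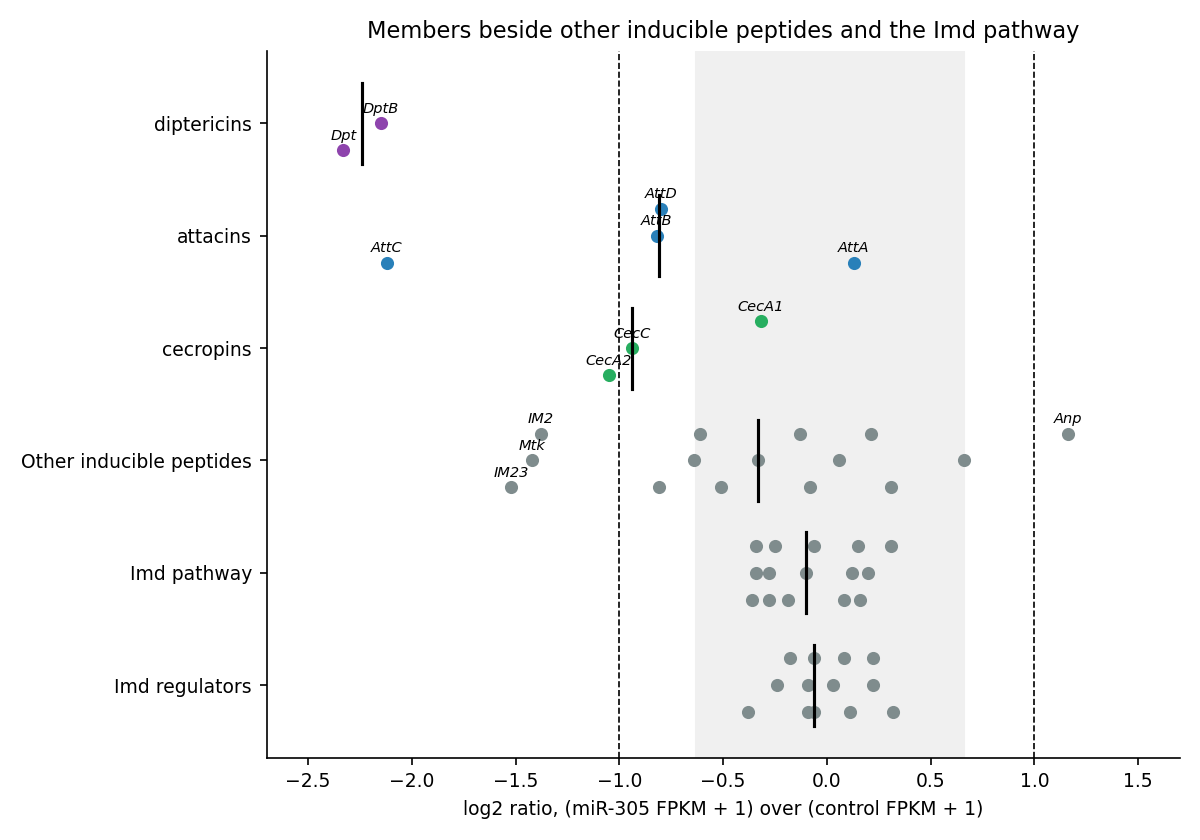
Log2 ratios of the members past the filter by family, above those of other inducible peptides, the Imd pathway and its regulators, with a vertical tick at each median, dashed lines at 2-fold and a grey band over the 5th to 95th percentile of all features. Dpt, DptB and AttC lie to the left of every gene of the other lists, and all genes of the Imd pathway lie inside the band.

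In whole bodies, fewer cells of a type and less RNA per cell cannot be told apart. Markers of tissues that can make these peptides differed among themselves. For the counts that follow, 2.36% of all features past the filter were at least 2-fold higher and 1.74% lower. The 9 matched fat body markers summed to 835 FPKM in miR-305 males and 444 FPKM in control males, of which Lsp2 had 514 and 159 FPKM. Of the 5 past the filter 3 were at least 2-fold higher, all of them larval serum protein genes (Lsp2, Lsp1alpha and Lsp1beta), and 0 were lower. The lipoprotein gene apolpp, listed as Rfabg, was near equal (235 against 251 FPKM, -0.09), and the yolk protein genes, Lsp1gamma and Fbp1 lay between -0.28 and 0.03. The fat body median was 1.49 over these 5 and -0.09 over all 9. The 11 gut markers summed to 6311 and 3992 FPKM, and 9 had log2 ratios above 0. Their median was 0.36, and 0.08 with the same sum. The 2 higher were betaTry (912 against 242 FPKM) and epsilonTry (198 against 64.6 FPKM). The 2 lower were the low-level deltaTry (0.64 against 3.73 FPKM) and LysX (2.69 against 9.81 FPKM). With a pseudocount of 5, 0 gut markers were lower. The 8 matched haemocyte markers summed to 208 and 157 FPKM, with 1 of 7 past the filter higher and a median log2 ratio of 0.19, which was -0.03 with the same sum. The 4 matched markers of ejaculatory duct and bulb, Anp among them, summed to 60754 and 29761 FPKM. Of these, 2 were higher and 0 lower, at a median log2 ratio of 0.84 (0.56 with the same sum). The 5 matched accessory gland markers summed to 41102 and 21738 FPKM, with 1 higher, 0 lower and a median of 0.94 (0.66 with the same sum). The 9 matched testis markers summed to 1296 and 1913 FPKM, with 0 past 2-fold and a median of -0.31 (-0.59 with the same sum). Except for the defining marker genes of females, no matched marker of a tissue was at 0 in both libraries, and the part of any tissue in the members' ratios was not tested.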

How the data were processed

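Trizol extracts of total RNA were used, per the labels' protocols, and single-end libraries for 51-bp reads were made with a directional kit for an Illumina HiSeq 1000. The deposited table holds 1 FPKM value per feature and library, per the file headers. The submitters' processing notes name FastQC 0.11.5, TopHat2 2.0.13, Cufflinks 2.2.1 and the dm6 build. Low values of 896 single-exon genes did not fall on common steps, so whole reads were not recovered and no counting interval is given. An exact 0 can be a failed estimate.

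From these values the ratio log2((miR-305 FPKM + 1)/(control FPKM + 1)) was computed, and folds are ratios of FPKM without the added 1. Coordinates and exon structures come from the Ensembl 115 annotation on dm6 coordinates (14979 of 15906 features matched), and list names were matched by symbol or RefSeq synonym. The table is that of 2 libraries, so no test was run. Members and gene lists were chosen with earlier results of these data known. Named were the 10 members and a fixed set of other inducible peptides. The genes at both ends of the Imd pathway, regulator and inducible peptide lists were also named. The end genes of the marker lists were not all named. Chosen after their values were seen were pirk, CG4744, CG43109, Edg91, 3 small nucleolar RNAs, PGRP-SC1a, marker genes and Yp3. No sequences of the members were used here. Alternatives were pseudocounts of 0.1 and 5, no filter or a mean FPKM of at least 10, scaling of the miR-305 library to the control median, upper quartile or sum, and summed paralogs. Python 3.11.15, numpy 2.4.6, pandas 2.3.3 and matplotlib 3.10.9 were used, and the counting was tested on simulated data.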

Additional observations from a re-analysis of the deposited data

How the results depend on the processing

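No paired analysis was possible because each group has 1 library. As single genes, Dpt, DptB and AttC were at least 2-fold lower with each pseudocount and scaling tried. Their log2 ratios were -2.58 to -1.96, -2.42 to -1.95 and -2.37 to -1.75. A filter leaves the ratio of a gene unchanged. No member was 2-fold higher under any pseudocount, filter or scaling. The count of members lower was 4 of 9, beside 1.74% of all features, and also 4 of 9 with the same upper quartile. It was 3 of 9 with the same median or a pseudocount of 5, and 5 of 9 with a pseudocount of 0.1. At a mean FPKM of at least 10 it was 4 of 5, beside 91 of 6747 features lower and 180 higher. Dpt and AttC passed only by their control values, so this filter shapes the count and its median. With the same FPKM sum the count was 7 of 9, beside 3.02% of all features. That scaling multiplied the miR-305 values by 0.822 and added AttB (-1.05), AttD (-1.01) and CecC (-1.17). The count was 2 of 5 with neighbouring paralogs summed. In an alternative added after seeing the data, it was 2 of 7 without DptB and AttC. That follows by subtraction, because both genes were counted as lower. CecC also passed with a pseudocount of 0.1 (-1.05) and, added after seeing the data, with no pseudocount (-1.07). CecA2 lay inside 2-fold with 5 as pseudocount (-0.87) and with the same median (-1.0). The members' median was -1.05 and -0.64 with pseudocounts of 0.1 and 5, -2.12 over the 5 members with a mean FPKM of at least 10, -1.17 with the same sum and -0.80 with paralogs summed. The log2 ratio of the members' sums was -1.05 with the same sum. Over all 11936 features past the filter, 332 were lower with a pseudocount of 0.1. With a pseudocount of 5, 102 of 11936 were lower and 175 higher. With the same sum 361 of 11936 were lower and 178 higher, at a median of -0.27. Among 10362 protein-coding features, added after seeing the data, 86 were lower and 163 higher. With the same sum the medians were -0.35 for the Imd pathway, -0.30 for its regulators and -0.62 for the other inducible peptides, of which 0 were then higher. Without a filter the last median was -0.13. Of 75 member ratios under alternatives, 68 kept their side of the threshold. These 75 include 10 without a filter and 5 at a mean FPKM of at least 10, which a filter cannot change. The shifts with the same sum follow from the 1 factor applied to all features. The others follow from the value added, the factor applied, or which features were counted or summed. The cause of the ratios themselves was not tested.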

Other observations

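The features nearest to a member in level over both libraries, by distance on the log2(FPKM + 1) scale over 2 libraries, were mostly not immune genes. Nearest to Dpt were snoRNA:Psi28S-3186 (9.93 FPKM in miR-305 males and 51.1 in control males, a distance of 0.111), snoRNA:Psi28S-1175b (0.122) and the mir-4945 stem-loop (0.261). Nearest to AttC were the mir-4945 stem-loop (0.071), CG5550 (7.61 FPKM in miR-305 males and 43.3 in control males, 0.194) and Dpt (0.268). Nearest to CecA1 were CG43134 (262 and 323 FPKM, 0.053), CG6115 (0.088) and the feature that holds CG33339 and CG33340 (0.113). With 1 library per group such nearness says only that the pairs of values are alike.

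Some ratios between members differed between the libraries while others did not. CecA2 stood at 2.38 times CecC in miR-305 males and 2.46 times in control males. Dro stood at 2.26 times AttA and 2.43 times. In contrast, CecA1 stood at 21.9 times CecA2 in miR-305 males and 12.6 times in control males, and at 29.1 times and 6.68 times Dpt. AttB stood at 1.61 times AttA in miR-305 males and 3.47 times in control males. Dpt stood at 0.0441 times Mtk in miR-305 males and 0.0894 times in control males, although Mtk was itself lower. These ratios do not depend on the scaling of the libraries. They were computed after the members' values were seen, and whether they recur in other libraries was not tested.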
